A study of Mus musculus with 12 samples.

Results

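The genes described here are 9 mouse genes for amino acid transporters of the cell membrane: Slc1a5, Slc1a4, Slc1a3, Slc7a5, Slc7a3, Slc7a11, Slc3a2, Slc38a1 and Slc38a2. They are 9 of the 18193 genes that the array measured with probe sets of a single gene symbol, and 21 of the 34945 such probe sets. The set was chosen on measured values: Slc1a5 had one of the largest differences between haploid and diploid cells in these arrays, and transporters that handle related substrates were put beside it. For that reason the differences between ploidies are given below for these 9 genes as a description, without a test. The comparisons between lines of the same ploidy were not used to choose Slc1a5 and were tested. Earlier results of these data were known when the genes were chosen.

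RNA came from mouse epiblast stem cells (EpiSCs), a pluripotent cell type kept in culture in the state of the postimplantation epiblast. There were 2 haploid lines labelled 129Sv (haploid EpiSC-2 and haploid EpiSC-1) and 2 diploid lines labelled B6D2F1 (diploid EpiSC-2 and diploid EpiSC-1), with 3 biological replicates of each, 12 arrays in all. The labels give 1 culture medium for all cells, N2B27 to which Activin A and bFGF were added, and no further treatment. Since every haploid line is 129Sv and every diploid line B6D2F1, ploidy and strain cannot be told apart. The labels do not say whether replicates were separate cultures, so p-values between lines measure only the spread between these samples.

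Many amino acid transporters carry substrates across the membrane as exchangers or together with sodium. Slc1a5 (ASCT2) and Slc1a4 (ASCT1) exchange small neutral amino acids, and Slc1a5 is a main route of glutamine into proliferating cells. Slc7a5 (LAT1) carries large neutral amino acids such as leucine, and Slc7a11 (xCT) takes up cystine in exchange for glutamate. Both of these work only when bound to the heavy chain encoded by Slc3a2. Slc7a3 (CAT3) carries arginine and lysine, Slc1a3 (GLAST) carries glutamate and aspartate, and Slc38a1 (SNAT1) and Slc38a2 (SNAT2) take up glutamine and alanine with sodium. Many of these genes are targets of Atf4, the transcription factor that responds to amino acid shortage.

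Values are MAS5 signals on a linear scale, and differences are on the log2 scale. Median signals were 63.6 to 76.5 per array. The signal filter kept 19837 probe sets with a geometric mean signal of at least 62.6, and arrays of the same line had correlations of 0.987 to 0.990. Of the 20 measured epiblast markers, only Lin28b stayed under 62.6 on every array, and their summed signal was 63016 to 87320 on haploid arrays, against 103014 to 117560 on diploid arrays. Between the ploidies 2 of 19 tested were called higher in haploid lines (Sox2 at 1.85 and Lefty1 at 1.09) and 2 lower (Tdgf1 at -1.07 and Epcam at -1.10), with a median of -0.53 (limma on line means, by which 3.03% of all probe sets were called). Otx2 and Fgf5, both defining for primed epiblast, averaged 74.0 and 86.9 in haploid EpiSC-1, against at least 2133 and 2332 in the other lines. Fibroblast markers moved with ploidy: 21 of 24 tested were higher on all haploid than on all diploid arrays (16.3% of all probe sets were) and 0 were lower. Some of the 24 passed the filter only through their haploid signal, so the filter partly set this count. Cdh11, for example, averaged 13.8 and 12.9 in diploid EpiSC-2 and EpiSC-1, against 2311 and 1831 in haploid EpiSC-2 and EpiSC-1. The summed signal over the 27 measured fibroblast markers was 74597 to 80917 on haploid arrays, against 11759 to 40751 on diploid arrays. Fap stayed under 62.6 everywhere. Endoderm markers summed to 1775 to 6561 on haploid arrays and 2417 to 4314 on diploid arrays. Neural markers summed to 1751 to 2338 on haploid arrays and 3517 to 4452 on diploid arrays, a gap carried by Olig1: without it the sums were 1710 to 2325 on haploid arrays and 1294 to 2695 on diploid arrays. The 3' to 5' ratio of the actin control was 1.34 to 1.42 on haploid arrays and 1.46 to 1.68 on diploid arrays. The part of these markers and of RNA quality in the transporter values was not tested, and fewer cells with a transcript cannot be told apart from less transcript per cell.

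Slc1a5, the glutamine exchanger, had far less signal in both haploid lines. On its brighter probe set, 1416629_at (Entrez 20514, chromosome 7), the signals were 123, 132 and 149 in haploid EpiSC-2, and 121, 138 and 133 in haploid EpiSC-1. The diploid signals were 1092, 1087 and 1130 in EpiSC-2, and 1644, 1557 and 1371 in EpiSC-1. All 6 haploid arrays lay far below all 6 diploid arrays, and the haploid lines were alike while the diploid lines were apart. The difference was -3.29 (haploid minus diploid, mean of 2 lines each), a 9.77-fold lower signal, and ran from -3.54 to -3.04 over the 4 pairs of lines. This was the 12th lowest value of 11105 genes tested, between 3110045C21Rik at -3.33 and Spata5l1 at -3.07. Detection calls were not used here, and the haploid signals lay not far above the filter of 62.6.

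The other probe set of Slc1a5, 1440379_at, was dimmer and showed a smaller difference. It gave 90.7, 108 and 72.9 in haploid EpiSC-2 and 90.0, 103 and 127 in haploid EpiSC-1. In diploid EpiSC-2 it gave 123, 178 and 149, and in diploid EpiSC-1 298, 263 and 331. The highest haploid array passed the lowest diploid array, so the groups overlapped, and the difference was -1.11 (-1.73 to -0.49 over the pairs of lines). Both probe sets were lowest in the haploid lines and highest in diploid EpiSC-1.

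**Figure D1:**
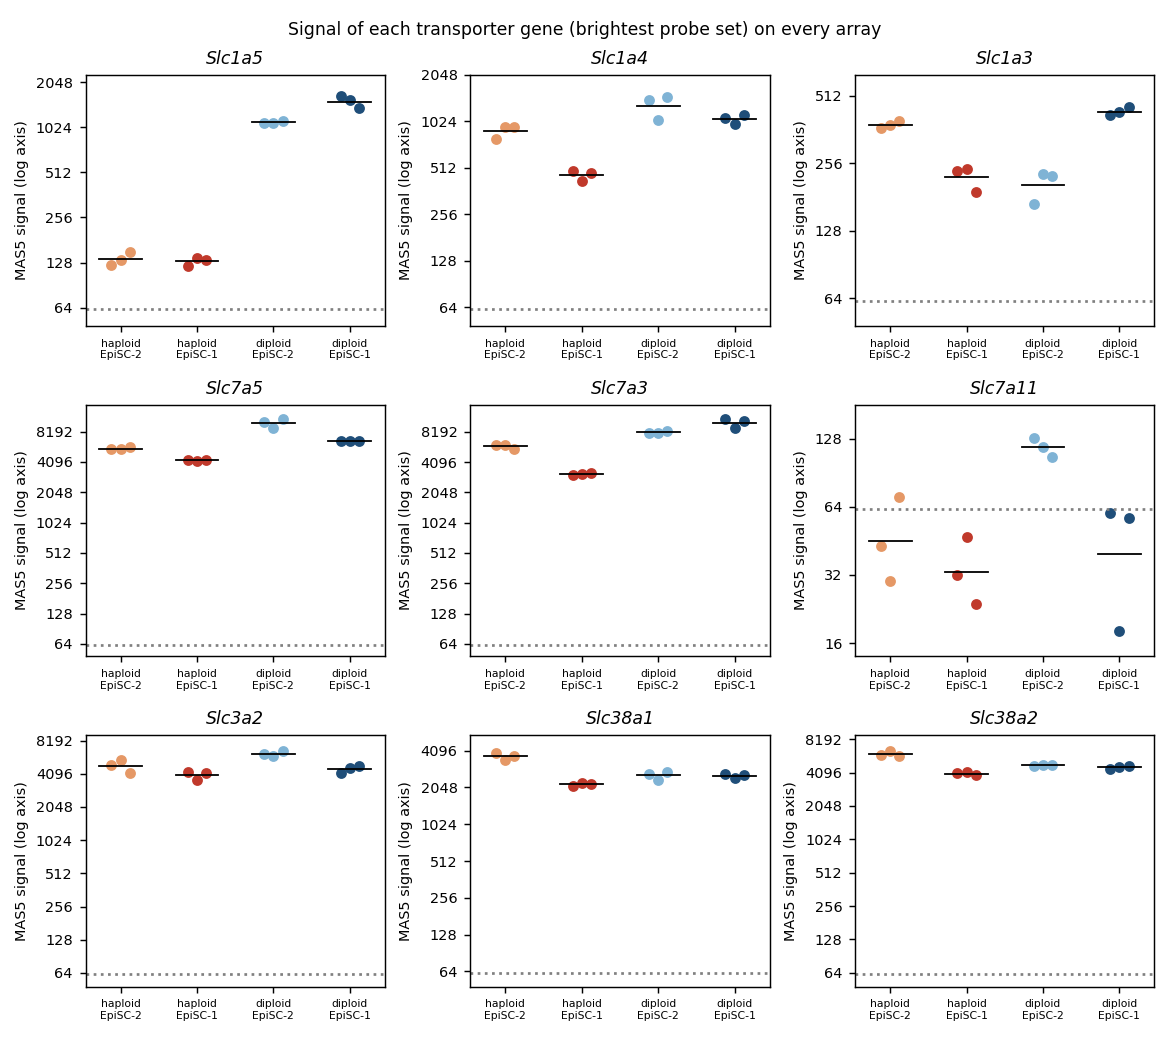
MAS5 signal of the brightest probe set of each of the 9 genes on each of the 12 arrays (log axis, points are arrays, bars the mean of log signals of 3 replicates, dotted line the signal filter of 62.6). Slc1a5 lies at 121 to 149 on the haploid arrays and at 1087 to 1644 on the diploid arrays, while Slc7a11 stays near or under the filter in 3 of the 4 lines.

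Slc1a4, the closest relative of Slc1a5 in the set, was lowest in haploid EpiSC-1. Its brightest probe set, 1456003_a_at (Entrez 55963, chromosome 11), read 784, 934 and 938 in haploid EpiSC-2 and 484, 419 and 475 in haploid EpiSC-1. The diploid arrays read 1409, 1047 and 1468 in EpiSC-2, and 1073, 980 and 1128 in EpiSC-1. The groups did not overlap, though the highest array of haploid EpiSC-2 (938) came close to the lowest of diploid EpiSC-1 (980), and the difference was -0.88. Its other probe sets, 1423549_at and 1423550_at, were at -0.56 and -0.59 with overlapping arrays. Probe sets on chromosome 11 had a median difference of -0.29 between the ploidies (1671 tested), against 0.03 over all probe sets tested.

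Slc1a3, the glutamate carrier, did not follow ploidy. Its brightest probe set, 1426340_at (Entrez 20512, chromosome 15), read 368, 381 and 394 in haploid EpiSC-2 and 238, 241 and 191 in haploid EpiSC-1. In diploid EpiSC-2 it read 169, 229 and 224, and in diploid EpiSC-1 419, 432 and 454. One line of each ploidy was high and the other low, and the difference between ploidies was -0.04. Of its 5 other probe sets, 1440491_at and 1426341_at lay under the filter, and all 5 overlapped between the ploidies.

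Slc7a5, the light chain for leucine, was lower on every haploid array. Probe set 1418326_at (Entrez 20539, chromosome 8) gave 5464, 5448 and 5716 in haploid EpiSC-2 and 4314, 4138 and 4317 in haploid EpiSC-1. The diploid arrays gave 10264, 8835 and 10795 in EpiSC-2, and 6576, 6632 and 6600 in EpiSC-1. The difference was -0.74 (-1.22 to -0.25 over the pairs of lines). Slc3a2, its obligate partner, overlapped between the ploidies. On 1425364_a_at (Entrez 17254, chromosome 19) it gave 4914, 5467 and 4166 in haploid EpiSC-2, and 4247, 3629 and 4118 in haploid EpiSC-1. Its diploid signals were 6162, 5892 and 6579 in EpiSC-2, and 4196, 4572 and 4849 in EpiSC-1, a difference of -0.27. In both genes diploid EpiSC-2 was highest and haploid EpiSC-1 lowest by the line means.

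Slc7a3, the arginine and lysine carrier, had the second largest difference of the brightest probe sets above the filter. On 1417022_at (Entrez 11989, chromosome X) the signals were 5981, 6013 and 5555 in haploid EpiSC-2 and 3036, 3148 and 3169 in haploid EpiSC-1. The diploid signals were 8036, 7876 and 8248 in EpiSC-2, and 10843, 8898 and 10456 in EpiSC-1. Every haploid array lay below every diploid array, and the difference was -1.07 (-1.69 to -0.46). Probe sets on the X chromosome went the other way as a whole, with a median of 0.29 over 670 tested.

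Slc7a11, the cystine carrier, had a mean under the signal filter on both of its probe sets. On 1420413_at (Entrez 26570, chromosome 3) the signals were 42.9, 30.1 and 71.1 in haploid EpiSC-2 and 32.1, 47.2 and 23.9 in haploid EpiSC-1. Diploid EpiSC-2 stood above with 129, 117 and 106, while diploid EpiSC-1 gave 60.2, 18.2 and 57.2. The other probe set, 1443536_at, read 11.9 to 47.1 on all arrays. With the filter applied, this gene was not tested.

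The sodium-coupled carriers Slc38a1 and Slc38a2 were highest in haploid EpiSC-2 on their brightest probe sets. Slc38a1 on 1454764_s_at (Entrez 105727, chromosome 15) read 3930, 3447 and 3692 in haploid EpiSC-2 and 2095, 2207 and 2199 in haploid EpiSC-1. The diploid lines lay between them, with 2639, 2354 and 2730 in EpiSC-2 and 2616, 2449 and 2610 in EpiSC-1. Slc38a2 on 1426722_at (Entrez 67760, chromosome 15) read 5936, 6389 and 5767 in haploid EpiSC-2, and 4032, 4140 and 3876 in haploid EpiSC-1. In the diploid lines it read 4680, 4828 and 4797 in EpiSC-2, and 4443, 4574 and 4728 in EpiSC-1. The differences between ploidies were 0.14 for Slc38a1 and 0.07 for Slc38a2, with overlapping arrays, and -0.046 and -0.11 with median-centred arrays. Slc38a1 and Slc38a2 are close neighbours on chromosome 15, and their brightest probe sets correlated at 0.93 over the 12 arrays, which share 4 lines.

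A further probe set of Slc38a2, 1429593_at, gave another picture. It read 833, 791 and 873 in haploid EpiSC-2 and 775, 798 and 923 in haploid EpiSC-1. The diploid arrays read 1038, 1181 and 1112 in EpiSC-2, and 1056, 1136 and 1149 in EpiSC-1. Here the ploidies did not overlap (difference -0.42) and lines of the same ploidy were alike, unlike on 1426722_at. The weaker probe set of Slc38a1, 1415903_at, was at -0.32 with overlapping arrays and was highest in diploid EpiSC-1. It averaged 765 and 708 in haploid EpiSC-2 and EpiSC-1, and 816 and 1037 in diploid EpiSC-2 and EpiSC-1.

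Over the 17 probe sets of 8 genes that passed the filter, 5 had all haploid arrays below all diploid arrays and 0 had them above. They were the brightest probe sets of Slc1a5, Slc1a4, Slc7a5 and Slc7a3, and 1429593_at of Slc38a2. Over all 19837 probe sets tested, 12.5% had the haploid arrays below and 16.3% above. The median difference of the 17 was -0.39, against 0.03 over all probe sets. Centring arrays on their medians moved the median of all probe sets by -0.19. With it, 8 of the 17 had the haploid arrays below and 0 above, with a median of -0.58 against -0.15 over all. Centring also changed the counts over all 19837 probe sets, to 3907 with the haploid arrays below and 2119 above. Because Slc1a5 was selected on this contrast, the counts of the 17 only describe the genes.

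**Figure D2:**
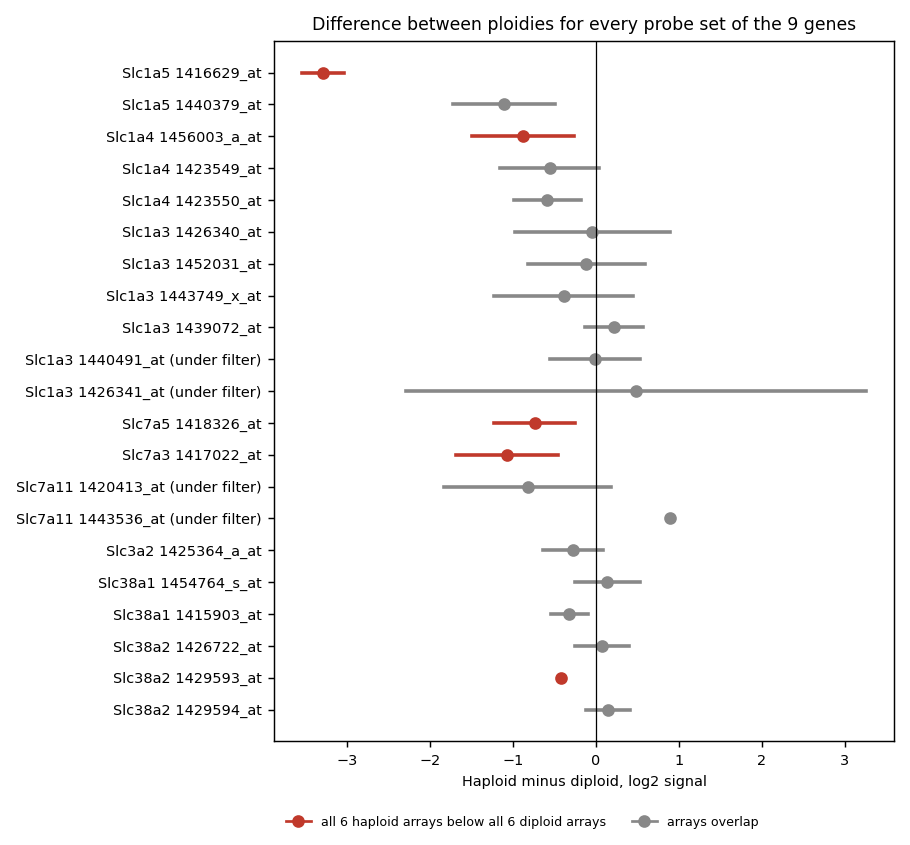
Haploid minus diploid difference (log2 signal) of all 21 probe sets of the 9 genes. Points are differences between the means of 2 lines each, and lines run from the lowest to the highest of the 4 pairs of lines. Slc1a5 on 1416629_at stands at -3.29, and the 5 probe sets in red have no overlap between haploid and diploid arrays.

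The first tested comparison set haploid EpiSC-2 against haploid EpiSC-1, which share strain and ploidy. Of the 8 brightest probe sets, 7 were called higher in haploid EpiSC-2, and that of Slc1a5 was not called. Among all tested probe sets, 22.8% were called higher and 26.7% lower in this contrast. Endoderm markers moved with this contrast: 7 of 9 tested were called higher in haploid EpiSC-2 and 0 lower, and they summed to 6047 to 6561 in haploid EpiSC-2, against 1775 to 2097 in haploid EpiSC-1. Of 19 epiblast markers 14 were called higher and 2 lower. The part of these markers in the transporter values was not tested. Slc7a3 rose by 0.91 ± 0.06 (log2, SE, 3 arrays each, limma adjusted p = 2.72e-08), a 1.88-fold higher signal. Slc1a4 rose by 0.94 ± 0.12 (adjusted p = 1.04e-05) and Slc1a3 by 0.78 ± 0.13 (adjusted p = 1.58e-04). Slc38a1 rose by 0.77 ± 0.06 (adjusted p = 1.54e-07), Slc38a2 by 0.59 ± 0.05 (adjusted p = 1.09e-07) and Slc7a5 by 0.38 ± 0.06 (adjusted p = 7.64e-05). For these 6 genes every array of haploid EpiSC-2 lay above every array of haploid EpiSC-1.

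Slc3a2 rose by 0.27 ± 0.09 (adjusted p = 0.0184), with overlapping arrays. This call was lost with quantile normalization (adjusted p = 0.0544) and without haploid EpiSC-1 replicate 2 (adjusted p = 0.089), haploid EpiSC-2 replicate 1 (0.054) or haploid EpiSC-2 replicate 2 (0.101). Slc1a5 was at 0.04 ± 0.10 (adjusted p = 0.756) on its brighter probe set and at -0.24 ± 0.20 (adjusted p = 0.335) on the other. The test did not show that the haploid lines have equal Slc1a5 signal.

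In all, 10 of the 17 probe sets were called higher in haploid EpiSC-2 and 0 lower. Over all probe sets tested, 22.8% were called higher and 26.7% lower. With median-centred arrays, which added 0.16 to this contrast, 12 of the 17 were called higher and 0 lower. Of all 19837 probe sets, 7001 were then called higher and 3332 lower. The share of higher among all calls was 67.8% with centring and 46% without. Without centring, the median of the 17 was 0.38, against -0.04 over all probe sets. Probe sets of a gene did not always move alike: 1423550_at of Slc1a4 was at 0.27 (adjusted p = 0.160), 1415903_at of Slc38a1 at 0.11 (adjusted p = 0.311) and 1429593_at of Slc38a2 at 0.00 (adjusted p = 0.970). For Slc1a3, 1452031_at and 1443749_x_at rose by 1.03 and 1.15, and 1439072_at was at -0.06 (adjusted p = 0.939). With the mean of its probe sets, Slc38a2 was at 0.08 (adjusted p = 0.552).

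Between the diploid lines the transporters were called in both directions. Among all tested probe sets, 22.4% were called higher in diploid EpiSC-2 and 30.9% lower. Fibroblast markers summed to 40204 to 40751 in diploid EpiSC-2, against 11759 to 12633 in diploid EpiSC-1 (15 of 24 called higher, 3 lower). Endoderm markers summed to 2417 to 2621 in diploid EpiSC-2, against 3893 to 4314 in diploid EpiSC-1 (0 of 9 called higher, 7 lower). The part of either marker list in this contrast was not tested. Slc7a5 rose by 0.59 ± 0.06 in diploid EpiSC-2 (adjusted p = 9.68e-07) and its partner Slc3a2 by 0.45 ± 0.09 (adjusted p = 5.47e-04). Slc1a5 changed by -0.46 ± 0.10 on 1416629_at (adjusted p = 0.00108) and by -0.997 ± 0.196 on 1440379_at (adjusted p = 6.20e-04), lower in diploid EpiSC-2 on every array. Slc7a3 changed by -0.32 ± 0.06 (adjusted p = 5.34e-04), and Slc1a3 by -1.08 ± 0.13 (adjusted p = 6.45e-06), which is 2.12-fold lower. The other tested probe sets of Slc1a3 were not called: 1452031_at was at -0.37 (adjusted p = 0.222), 1443749_x_at at -0.52 (adjusted p = 0.166) and 1439072_at at -0.64 (adjusted p = 0.329). Without diploid EpiSC-2 replicate 2, 1443749_x_at was called at -0.97 (adjusted p = 0.00276). Slc38a1 was at 0.01 (adjusted p = 0.936) on its brightest probe set, while 1415903_at changed by -0.34 (adjusted p = 0.00486). Slc38a2 was at 0.06 (adjusted p = 0.306), and its other probe sets were not called.

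Slc1a4 gave opposite directions on its probe sets in the diploid lines. The brightest was at 0.29 ± 0.12 (adjusted p = 0.0488), a call lost without any of 9 single arrays (adjusted p up to 0.198), while 1423549_at and 1423550_at changed by -0.56 (adjusted p = 9.17e-05) and -0.54 (adjusted p = 0.00874). Of the 17 probe sets, 3 were called higher and 7 lower in diploid EpiSC-2. Over all probe sets, 22.4% were called higher and 30.9% lower. Neither the haploid nor the diploid line numbers stand for a shared condition, so the contrasts of the ploidies were not set against each other.

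**Figure D3:**
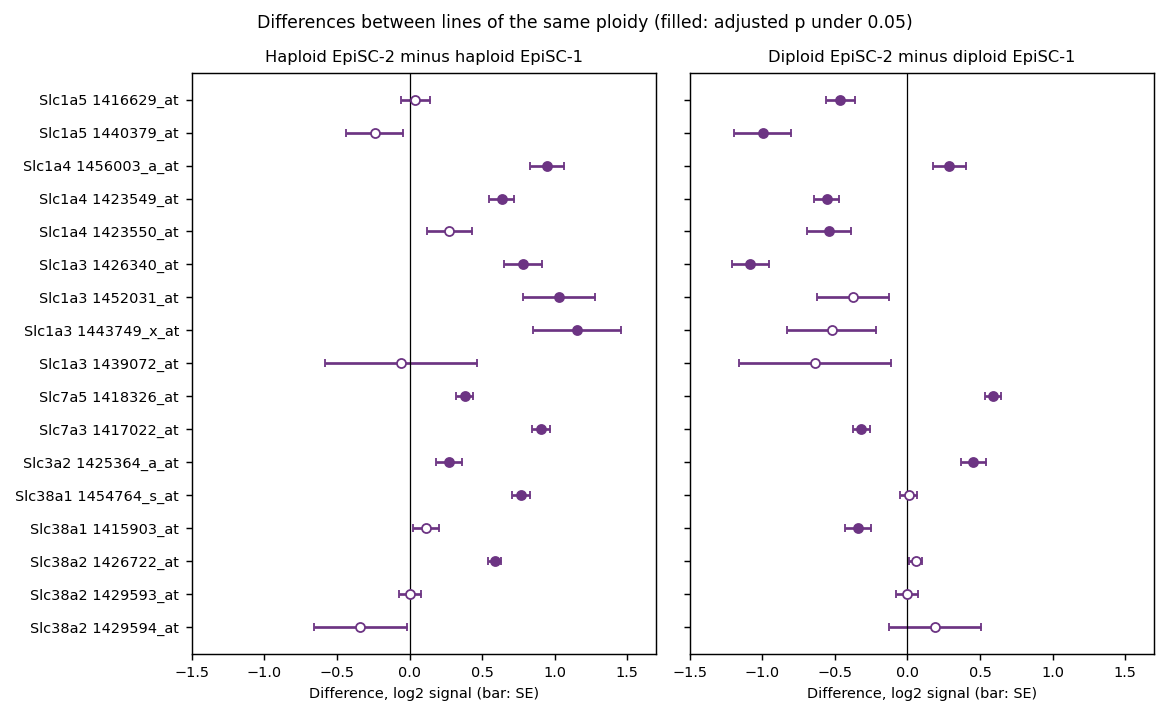
Differences between lines of the same ploidy for the 17 probe sets above the signal filter (log2 signal, bars are standard errors from limma, 3 arrays a line, filled points have an adjusted p under 0.05). In the haploid panel 10 points are filled and all lie right of 0, while the filled points of the diploid panel lie on both sides, 3 higher and 7 lower.

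Promoter sequences of RefSeq (GRCm38.p6) were found for 5 of the 9 genes, Slc1a4, Slc1a3, Slc7a11, Slc3a2 and Slc38a2, from 250 bases before to 50 after an annotated start. They were searched on both strands for TGATGNAA, the core of the composite site of Atf4 and C/EBP factors, because Atf4 is known to drive genes of this kind. Slc7a11 held 2 matches, beginning at -66 and -47 from the start, and Slc1a4 held 1, beginning at -4. The stretches that hold them, from -96 to 4, are shown 5' to 3' on the minus strand of chr3:50443610-50443709 for Slc7a11 and of chr11:20332710-20332809 for Slc1a4, with the matches in capitals:
Slc7a11: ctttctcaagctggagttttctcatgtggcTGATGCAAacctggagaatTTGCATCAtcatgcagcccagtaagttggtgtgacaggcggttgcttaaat
Slc1a4: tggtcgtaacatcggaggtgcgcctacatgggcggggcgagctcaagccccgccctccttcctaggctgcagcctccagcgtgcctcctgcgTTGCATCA
The motif was found in 3.97% of 32851 RefSeq promoter windows of the same length. The Slc1a3, Slc3a2 and Slc38a2 windows held none. The E-box CACGTG, bound by Myc, was in 0 of the 5 windows and in 7.15% of all, and TGACNNNGC, the core bound by Nrf2, was in that of Slc38a2 and in 12.4% of all. Of the genes with an Atf4 motif, Slc1a4 had a 1.92-fold higher signal in haploid EpiSC-2, against haploid EpiSC-1 (0.94 on the log2 scale). Slc7a11, whose mean over all arrays was under the filter, was not tested. Slc1a3, Slc38a2 and Slc3a2, without the motif, were also called higher in haploid EpiSC-2 on their brightest probe sets (0.78, 0.59 and 0.27). The Slc3a2 call was lost with quantile normalization. A link between the motif and these differences was not tested.

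Other genes of amino acid transport and use were compared between ploidies with limma on line means, 2 haploid against 2 diploid lines. Of all 19837 probe sets, 3.03% were called, 66.4% of them higher (56.2% with median-centred arrays). Among 22 tested amino acid transporters outside the set, 1 rose and 0 fell, with a median of 0.05 (-0.14 with median-centred or quantile-normalized arrays). The one that rose was Slc38a4, an imprinted relative of Slc38a2 on the same chromosome, at 1.72 ± 0.26 (log2, SE, 2 lines each, adjusted p = 0.0278). With a stricter signal filter the call was lost (adjusted p = 0.0527). Its mean signals were 2507 and 3059 in haploid EpiSC-2 and EpiSC-1, and 988 and 712 in diploid EpiSC-2 and EpiSC-1. In this gene the direction was thus opposite to the differences of Slc1a5, Slc7a3 and Slc7a5.

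Genes of glutamine, glutamate and proline metabolism had 2 of 21 called higher and 0 lower, with a median of -0.06 (-0.25 with median-centred arrays). Ctps2, which uses glutamine to make CTP, rose by 1.62 ± 0.22 (adjusted p = 0.0211), and Abat, the GABA transaminase, by 2.43 ± 0.37 (adjusted p = 0.0283). Ctps2 averaged 2544 and 2719 in the haploid lines EpiSC-2 and EpiSC-1, and 792 and 922 in the diploid lines EpiSC-2 and EpiSC-1. Abat averaged 339 and 480 in haploid EpiSC-2 and EpiSC-1, and 94.7 and 60.1 in diploid EpiSC-2 and EpiSC-1. The size of its difference thus rests on diploid signals near or under the signal filter. With the mean of a gene's probe sets the Ctps2 call was lost (adjusted p = 0.0915) and Abat lay under the filter, as it did under the stricter filter.

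In the other lists limma on line means called 0 genes. Over all probe sets, 11.9% were higher and 7.76% lower at an unadjusted p under 0.05. At that threshold there were 4 higher and 1 lower of 30 amino acid response genes, 0 and 3 of 19 cytosolic aminoacyl-tRNA synthetases, and 0 and 1 of 20 genes of glutathione synthesis and Nrf2. There were 1 and 1 of 35 genes of amino acid sensing by mTORC1, and 1 and 0 of 11 genes of the Myc family and its partners. With arrays as the units and the line as a random block, limma called 3157 probe sets, 1859 higher and 1298 lower of the 19837 tested. In these lists, in the same order, it called 3 higher and 1 lower, 0 and 5, 1 and 2, 2 and 2, and 3 and 0.

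The synthetases, which load amino acids onto tRNAs, had a median of -0.27, and 7 of 19 had all haploid arrays below all diploid arrays with 0 above (12.5% and 16.3% over all probe sets). With median-centred arrays the median was -0.45, against -0.15 over all probe sets. The haploid arrays then lay below in 12 of 19 and above in 0. Over all 19837 probe sets they then lay below in 3907 and above in 2119. Iars (isoleucine) was at -0.75 (adjusted p = 0.260), Sars (serine) at -0.57 (adjusted p = 0.203) and Wars (tryptophan) at -0.56 (adjusted p = 0.279). Between the haploid lines, 14 of the 19 were called higher in haploid EpiSC-2 and 2 lower, with a median of 0.23, against 22.8% and 26.7% of all probe sets. Iars rose there by 0.99, to 7486 in haploid EpiSC-2 against 3780 in haploid EpiSC-1. In diploid EpiSC-2, 9 of the 19 synthetases were called higher and 4 lower than in diploid EpiSC-1. The amino acid response genes had a median of -0.16 between the ploidies (-0.35 with median-centred arrays). In that list Nupr1, a stress protein, was at 2.71 (adjusted p = 0.140), the cystathionine synthase gene Cbs at -1.48 (adjusted p = 0.108) and the mitochondrial folate enzyme gene Aldh1l2 at 1.34 (adjusted p = 0.0792). Between the diploid lines, 19 of the 30 amino acid response genes were called higher in diploid EpiSC-2 and 3 lower. Over all probe sets the shares were 22.4% and 30.9%. In haploid EpiSC-2, 14 of the 30 were called higher and 9 lower than in haploid EpiSC-1. Other lists also differed between lines. Glutamine, glutamate and proline genes had 3 of 21 higher and 14 lower in diploid EpiSC-2, and glutathione and Nrf2 genes 11 of 20 higher and 3 lower in haploid EpiSC-2.

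In the glutathione and Nrf2 list the median was -0.12 (-0.31 with median-centred arrays). This list had 4 of 20 genes below on all haploid arrays and 2 above, against 12.5% and 16.3% of all probe sets. Its largest differences with arrays apart were Cbs, which it shares with the amino acid response list, at -1.48 (adjusted p = 0.108), the sulfiredoxin gene Srxn1 at 0.84 (adjusted p = 0.281) and the malic enzyme gene Me1 at 0.68 (adjusted p = 0.261). The mTORC1 list had a median of -0.19 (-0.37 with median-centred arrays). Its largest differences with arrays apart were Sesn3, a sestrin, at 1.17 (adjusted p = 0.114), Mios of the GATOR2 complex at -0.69 (adjusted p = 0.278) and Tbc1d7 of the TSC complex at -0.62 (adjusted p = 0.246). In the Myc list the median was 0.07 (-0.12 with median-centred and -0.09 with quantile-normalized arrays), with Mxd4 at 1.03 (adjusted p = 0.146) and Mlx at -0.38 (adjusted p = 0.464).

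**Figure D4:**
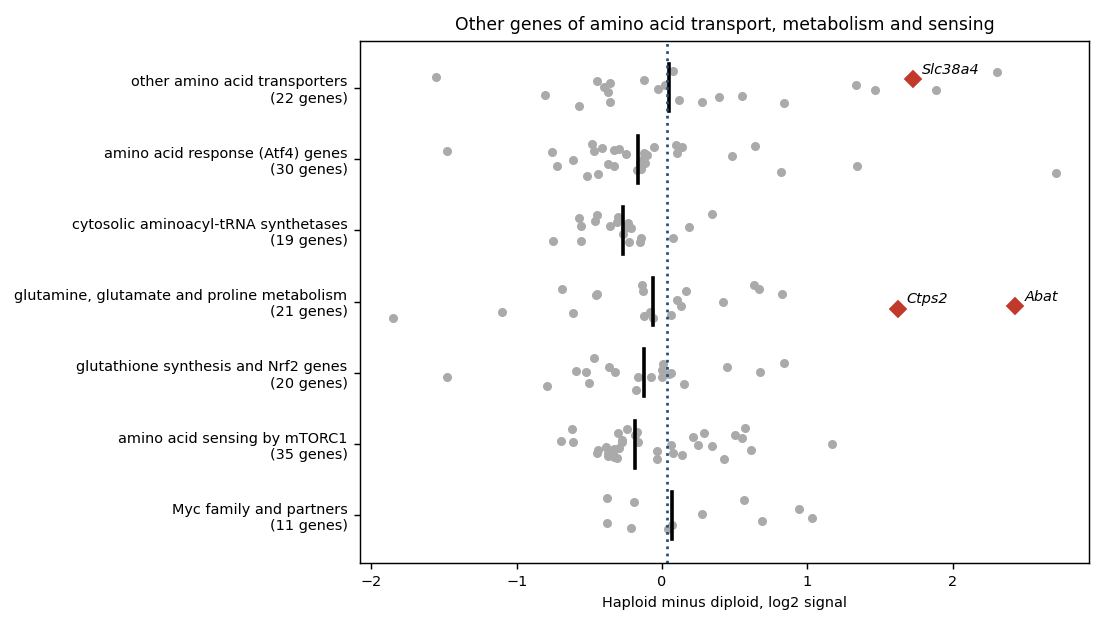
Haploid minus diploid difference (log2 signal) of the tested genes of 7 lists, each gene by its brightest probe set. Red diamonds passed the threshold with line means as the units, black bars are list medians and the dotted line is the median of all probe sets (0.03). Slc38a4, Ctps2 and Abat are the called genes, all higher in the haploid lines.

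Over the 12 arrays, the brightest probe set of Slc1a5 was compared with those of 11097 other genes by Pearson correlation of log2 signals. The most alike were Mettl23 (0.995), 2810408A11Rik (0.994), Ddx52 (0.992), Nipsnap1 (0.991) and Psrc1 (0.991), and 262 genes had a correlation over 0.95. The first 4 of these genes lie on chromosome 11 and Psrc1 on chromosome 3. Psrc1 averaged 1131 and 1441 in haploid EpiSC-2 and EpiSC-1, against 5635 and 7009 in diploid EpiSC-2 and EpiSC-1. With 4 lines behind the 12 arrays, such values mostly describe a step between ploidies. Among the 9 genes themselves, Slc1a5 correlated best with Slc7a3 (0.86) and Slc7a5 (0.77), and lowest with Slc38a1 (-0.24) and Slc38a2 (-0.18).

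The nearest tested genes around Slc1a5 on chromosome 7 lay 1 to 14 genes away, and none was called between the ploidies by limma on line means. Before it, Ap2s1 was at 0.64 (adjusted p = 0.182), Arhgap35 at 0.09 (adjusted p = 0.886) and Tmem160, the farthest, at -0.73 (adjusted p = 0.125). After Slc1a5, Strn4 was at 0.01 (adjusted p = 0.989), Prkd2 at 0.03 (adjusted p = 0.974) and Dact3 at 0.82 (adjusted p = 0.230). Tmem160 had all haploid arrays below all diploid arrays, as Slc1a5 did, while Ap2s1 and Dact3 had them above. Probe sets on chromosome 7 had a median difference of 0.05 (1291 tested).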

How the data were processed

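Each sample was 1 array. The submitters' processing notes name MAS5, and the deposited table holds signal intensity that is not log transformed. The version was not given in the sources used here. None of the 45101 values per array was at or below 0. Here 64 control probe sets were dropped, and 34945 probe sets with 1 symbol in the platform annotation were kept (932 had several symbols and 9160 none). Values were used as log2 signals with no pseudocount or further normalization. Probe sets whose mean log2 signal reached 5.97, the median of all non-control probe sets, were tested (19837). Lists were counted by each gene's brightest probe set.

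Lines of a ploidy were compared with limma 3.58.1 (R 4.3.3) on 4 group means over 12 arrays, moderated by eBayes with a trend on mean signal. Ploidies were compared with limma on the 4 line means, since arrays of a line share that line (correlation of 0.769 with statmod 1.5.0). Probe sets with a Benjamini-Hochberg adjusted p under 0.05 over all tested were called. Tests were two-sided and were checked on simulated data. The genes, lists and rules were chosen with earlier results of these data known. Named list genes were the called ones (up to 4), or otherwise up to 3 with the largest difference and arrays apart. Like genes were the 5 with the highest correlation, and neighbours the nearest 3 tested on each side. Chromosomes came from GRCm38.p6 by Entrez identifier. Alternatives were other scalings, filters, probe set rules, blocks, a pseudocount of 16 and leaving out each array. The number of arrays limits the precision.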

Additional observations from a re-analysis of the deposited data

How the results depend on the processing

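With the line as a random block instead of line means, 3157 probe sets were called between the ploidies instead of 601. That fit takes arrays as units, though the lines are still 4. The causes of this and of the other changes in this section were not tested. Fewer features enter with 1 value per gene or a stricter filter. In the random block fit the lists had 6 called other transporters, 4 amino acid response genes, 5 synthetases and 6 glutamine, glutamate and proline genes. Also called were 3 glutathione and Nrf2 genes, 4 mTORC1 genes and 3 Myc genes. Same-numbered replicates did not deviate together (correlations of -0.04 to 0.08 over 18 pairs), so the numbers were not taken to pair samples. With the replicate block, and the line as a random block, 2692 were called, with 5, 3, 4, 6, 2, 2 and 0 in the lists in that order, 9882 between the haploid and 10588 between the diploid lines (9827 and 10574 without it). The brightest probe set per gene gave 325, 6288 and 6196 calls between ploidies, haploid lines and diploid lines, with 6 transporters of the set called between the diploid lines. The mean of a gene's probe sets gave 281, 4616 and 4675, with 6 called between the haploid lines, 0 glutamine genes, and Slc1a5 at -2.20 between ploidies. A stricter filter (signal 422) gave 91, 6441 and 6864, with 6 called between the diploid lines, 1 glutamine gene and 0 other transporters, and left out Slc1a5. The Slc1a5 difference was -3.47 with centred arrays, -3.41 with quantile normalization and -3.14 with a pseudocount of 16.

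Without single arrays, calls ran from 575 to 666 between ploidies, 8784 to 9969 between haploid and 9503 to 10626 between diploid lines. In the set they ran from 9 to 11 of 17 in both line contrasts. The Slc1a5 difference between ploidies ran from -3.33 to -3.25, and the called glutamine genes from 2 to 3.

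Sign changes touched small values, genes whose probe sets disagree, and 1439072_at of Slc1a3 between the diploid lines. That probe set was at -0.64 there, with uneven signals of 130, 79.2 and 19.2 in diploid EpiSC-2. With the mean of probe sets, Slc1a5 was at -0.10 between the haploid lines, and Slc1a4 at -0.27 and Slc38a1 at -0.17 between the diploid lines. Probe set 1439072_at of Slc1a3 was at 0.11 between the haploid lines with centred arrays and with quantile normalization. Between the diploid lines, 1426722_at of Slc38a2 was at -0.013 with quantile normalization, and 1429593_at at 0.041 with centred arrays and 0.082 with quantile normalization. Without single arrays, Slc1a5 on 1416629_at ran from -0.036 to 0.11, 1439072_at of Slc1a3 from -0.22 to 0.22 and 1429593_at of Slc38a2 from -0.045 to 0.081 between the haploid lines. Between the diploid lines 1439072_at ran from -1.22 to 0.16, 1454764_s_at of Slc38a1 from -0.037 to 0.070 and 1429593_at from -0.051 to 0.043.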

Other observations

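Slc7a1, the widely expressed arginine and lysine carrier of the family of Slc7a3, differed more between lines than between ploidies. It was singled out after its values were seen. Its mean signals were 3489 ± 89.8 and 1465 ± 89.2 in haploid EpiSC-2 and EpiSC-1, and 3613 ± 208 and 962 ± 34.2 in diploid EpiSC-2 and EpiSC-1 (SD, n = 3). It rose by 1.25 in haploid EpiSC-2 (limma adjusted p = 6.09e-10) and by 1.91 in diploid EpiSC-2 (limma adjusted p = 2.58e-12). Between the ploidies it was at 0.28 (adjusted p = 0.853, limma on line means).

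The light chain genes Slc7a6 and Slc7a7, partners of Slc3a2 and also picked after their values were seen, were higher in haploid EpiSC-2 by 1.01 (limma adjusted p = 1.51e-09) and 0.70 (limma adjusted p = 1.78e-07). In diploid EpiSC-2, Slc7a6 changed by -0.59 (limma adjusted p = 2.77e-07) and Slc7a7 was at -0.08 (limma adjusted p = 0.228).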
